A study of Rattus norvegicus with 15 samples.

Results

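Transcripts of glucocorticoid and steroid hormone action were followed in the epididymal fat, the visceral depot beside the testis, of diet-induced obese and lean rats. The set was a list of 9 genes, and its members were the probe sets that the array's annotation pairs with exactly 1 gene, that gene being on the list. Of the 9 genes, 8 had such a probe set, or 8 of the 14217 genes so named on the array, with 12 of the 31042 non-control probe sets. Srd5a1, the enzyme that reduces testosterone to dihydrotestosterone, was not analysed here. A filter that removed the dimmest 40% of probe sets kept 10 of the 12, which named 7 genes, and Esr1 lay below it. The rule uses no measured value, but the list was drawn up with earlier results of these arrays known.

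The 7 obese rats were male Long-Evans animals that had eaten a high-sucrose, high-fat diet (TD95217) since weaning. The 8 lean rats were of the same sex, strain and age and ate regular chow (Purina 5008). Diet and obesity changed together and cannot be told apart. Both groups shared the same earlier handling: transport (age 14 weeks), a glucose test (21 weeks) and a blood draw after fasting (25 weeks). Whether these events bear on the signals was not tested. Each rat gave 1 Affymetrix RAE230_2 array of whole fat pad RNA, and all were killed in the fed state at 26 weeks of age, 1 hour before lights off. In rats, corticosterone in blood rises towards the dark phase, and no hormone level was analysed here.

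Glucocorticoids are steroid hormones of the adrenal cortex, corticosterone being the main one in rats. Inside the fat cell the hormone binds the glucocorticoid receptor, which chaperones hold ready in the cytoplasm, and the loaded receptor enters the nucleus and switches target genes on or off. Local enzymes set how much active steroid a fat cell sees, by regenerating glucocorticoid or by clearing androgens. In fat, glucocorticoids are known for promoting fat cell maturation and for altering lipid storage and release.

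The values were MAS5 signals, a brightness per probe set on a linear scale, from 0.4 to 411403 over non-control probe sets. Precision is limited by how many arrays there are. Obese rat 1 and lean rat 7 gave arrays that correlated at r = 0.9857 over 18625 probe sets, against at most 0.9604 for the other 104 array pairs, although their labels differ. Results are therefore given with all 15 arrays and with 13, without that pair. Nr3c1 had a signal of 9397 in obese rat 1 and 9400.2 in lean rat 7, where the other 6 obese rats reached at most 7957. Akr1c14 had 1838 in obese rat 1, below the other 6 obese rats, and Fkbp5, Tsc22d3 and Sgk1 in lean rat 7 lay above the other 7 lean rats. All 7 fat cell markers lay above the filter, which acts on the mean over the 15 arrays and not on single rats. With 13 arrays 4 of the 7 had positive log2 fold changes, against 46.7% of all genes. Their summed signal ran from 212152 to 376899 in the 6 obese rats and from 229644 to 308887 in the 7 lean rats. The median sum was 238246 in obese and 276589.5 in lean rats. In bulk fat, fewer cells of a type and less RNA per cell cannot be told apart.

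Across the set, obese fat had somewhat higher signals of 3 glucocorticoid-induced genes and of the steroid-clearing enzyme Akr1c14, and no member passed the test. With 13 arrays the log2 fold changes of obese over lean rats were 0.44 for Fkbp5, 0.37 for Tsc22d3, 0.46 for Sgk1 and 0.64 for Akr1c14. The receptor Nr3c1 and the activating enzyme Hsd11b1 had values below 0. With all 15 arrays limma passed 0 of 7 members at an adjusted p of 0.05, against a background of 0% of 18625 probe sets, and with 13 arrays 0 of 7 against 1.01%. At an unadjusted p under 0.05 there were 4 of 7 members in each comparison, against 15.6% of all probe sets with 15 arrays and 17.8% with 13. All 4 were higher in obese rats, a direction and threshold met by 6.74% of probe sets with 15 arrays and 7.59% with 13. Positive log2 fold changes were found for 5 of 7 members in each comparison, against 42.5% of probe sets with 15 arrays and 42.2% with 13. Over all 10514 genes, each read by its brightest probe set as the members were, 46.9% were positive with 15 arrays and 46.7% with 13. Of these genes 7.75% and 8.54% were higher in obese rats at an unadjusted p under 0.05 by limma. The groups did not overlap for 0 of 7 members with 15 arrays, against 0.193% of probe sets in either direction and 0.107% higher in obese rats, and for 1 of 7 with 13 arrays, against 1.45%. The median log2 fold change of the 7 was 0.37 with 13 arrays, and that of all probe sets was -0.04. After median centring of the arrays that value was 0.07, and no member changed sign under that centring.

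**Figure D1:**
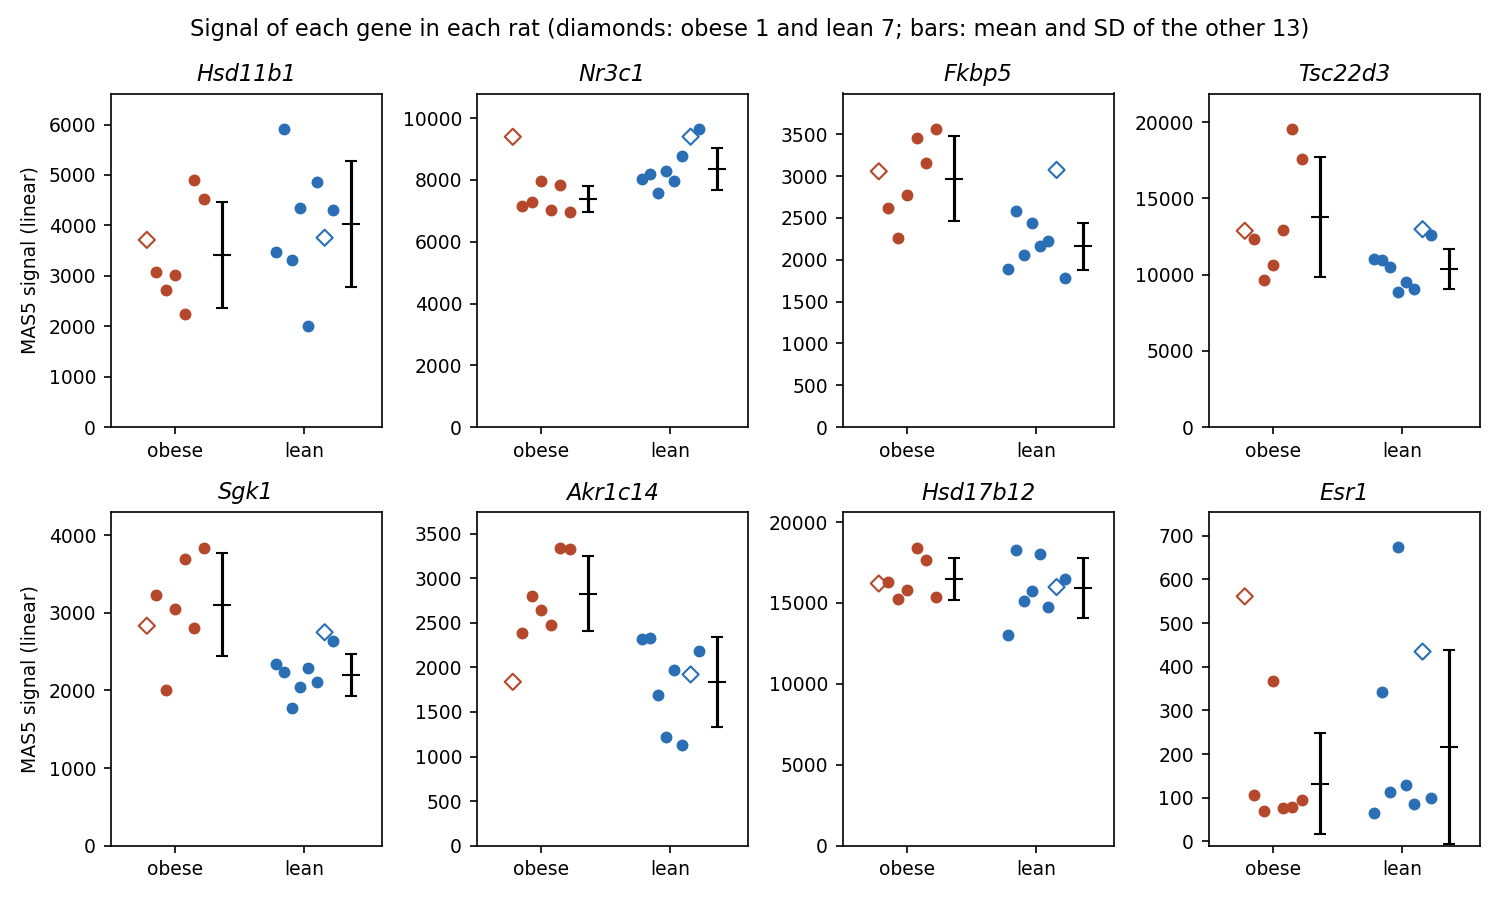
MAS5 signal (linear scale, from 0, with room below it for the Esr1 bar) of the brightest probe set of each gene, 1 point per rat, obese left and lean right. Open diamonds are obese rat 1 and lean rat 7, and black bars are the mean and SD of the other 13 rats; Akr1c14 shows 6 obese rats from 2381 up, above the 7 lean rats, while Hsd11b1 and Hsd17b12 overlap widely.

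Hsd11b1 (Entrez gene 25116), the enzyme that regenerates active glucocorticoid from its inert form inside fat cells, showed no difference beyond the spread between rats. Its signal was lowest at 2254, median 3047 and highest at 4899.7 in the 6 obese rats, and 2012, 4299 and 5907 in the 7 lean rats. The lowest and the highest rat of the 13 were both lean, and 2 of 6 obese rats lay above the lean median. Obese over lean, the log2 fold change was -0.22 ± 0.23 (SE; limma adjusted p = 0.653), with a 95% interval from -0.71 to 0.27. With 15 arrays it was -0.19 ± 0.20 (SE; limma adjusted p = 0.684). H6pd, which supplies Hsd11b1 with its cofactor NADPH and was singled out after its values were seen, had -0.33 ± 0.19 with 13 arrays (SE; limma adjusted p = 0.366).

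Nr3c1 (Entrez gene 24413), the glucocorticoid receptor itself, was read by a bright probe set and by a dim one, and array signals do not rank transcripts against each other. The 6 obese rats ran from 6975 through a median of 7237 to 7957, and the 7 lean rats from 7569.7 through 8193 to 9640.5. Of the 6 obese rats, 4 lay below every lean rat and none above the lean median. The log2 value of obese over lean was -0.18 ± 0.09 (SE; limma adjusted p = 0.307), and its 95% interval ran from -0.36 to 0.01. With 15 arrays it was -0.15 ± 0.09 (SE; limma adjusted p = 0.430). A second Nr3c1 probe set lay below the filter, at 221 ± 172 in obese and 239 ± 156 in lean rats (SD, n = 6 and 7), and its groups overlapped.

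Fkbp5 (Entrez gene 361810) encodes a co-chaperone that lowers the receptor's affinity for hormone and is itself induced by the receptor, closing a feedback loop. Its brightest probe set had 2266 as the lowest, 2962 as the median and 3560.3 as the highest signal in the 6 obese rats. In the 7 lean rats these were 1787, 2161.5 and 2579. All 6 obese rats lay above the lean median and 5 above every lean rat, with obese rat 3 inside the lean range. The log2 fold change was 0.44 ± 0.12 (SE; limma adjusted p = 0.0985), with a 95% interval from 0.17 to 0.70. With 15 arrays it was 0.38 ± 0.12 (SE; limma adjusted p = 0.164). The other Fkbp5 probe set, dimmer, had 0.34 ± 0.22 with 13 arrays (SE; limma adjusted p = 0.426). Without obese rat 3 the brightest probe set had a log2 fold change of 0.51 and an adjusted p of 0.0496 by limma, and across the alternatives the adjusted p lay between 0.0496 and 0.304.

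Tsc22d3 (Entrez gene 83514), also called GILZ, is a leucine zipper protein through which glucocorticoids dampen inflammation. The 6 obese rats ran from 9629.6 through 12631 to 19529, and the 7 lean rats from 8886 through 10520.1 to 12567. Obese rats 7 and 8 had the 2 highest signals, 19529 and 17576, and 3 of 6 obese rats lay above every lean rat. The log2 fold change was 0.37 ± 0.16 (SE; limma adjusted p = 0.237), with a 95% interval from 0.03 to 0.71, and with 15 arrays 0.32 ± 0.14 (SE; limma adjusted p = 0.296).

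Sgk1 (Entrez gene 29517) encodes a kinase induced by glucocorticoids and mineralocorticoids that acts on ion channels and transporters. The 6 obese rats ran from 2002.5 through 3142 to 3839, and the 7 lean rats from 1769.6 through 2241 to 2639.6. Obese rat 3 lay among the lean rats, and the other 5 lay above all of them. The log2 fold change was 0.46 ± 0.14 (SE; limma adjusted p = 0.117), with a 95% interval from 0.16 to 0.76. With 15 arrays it was 0.40 ± 0.13 (SE; limma adjusted p = 0.164). Without obese rat 3 it was 0.57, with an adjusted p of 0.0322 by limma, and over the alternatives the adjusted p ran from 0.0322 to 0.419.

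RNA quality and macrophage markers are set beside these genes. The log2 ratio of 3 prime to 5 prime Gapdh signal, which grows as RNA degrades, was 0.72 ± 0.28 in the 6 obese and 1.05 ± 0.28 in the 7 lean rats (SD; exact two-sided permutation p = 0.0589). The same ratio for beta-actin was 1.37 ± 0.40 in obese and 1.77 ± 0.24 in lean rats (SD; exact two-sided permutation p = 0.0501), and with 15 arrays its p was 0.0373 by the same exact test. With the Gapdh ratio as a covariate the log2 fold change was 0.07 for Tsc22d3, 0.27 for Sgk1 and 0.36 for Akr1c14, while Fkbp5 had 0.41. The summed signal of 8 macrophage markers ran from 104500.3 to 185724 in the 6 obese rats, against 69919.5 to 102813 in the 7 lean rats. Of the 8, 2 passed with 13 arrays, against 1.01% of all probe sets. With 15 arrays the sums overlapped, the lowest obese rat having 85281.6, and 0 of the 8 passed, against 0% of all probe sets. All 8 had positive log2 fold changes, none lay below the filter, and their part in the values of the members was not tested.

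**Figure D2:**
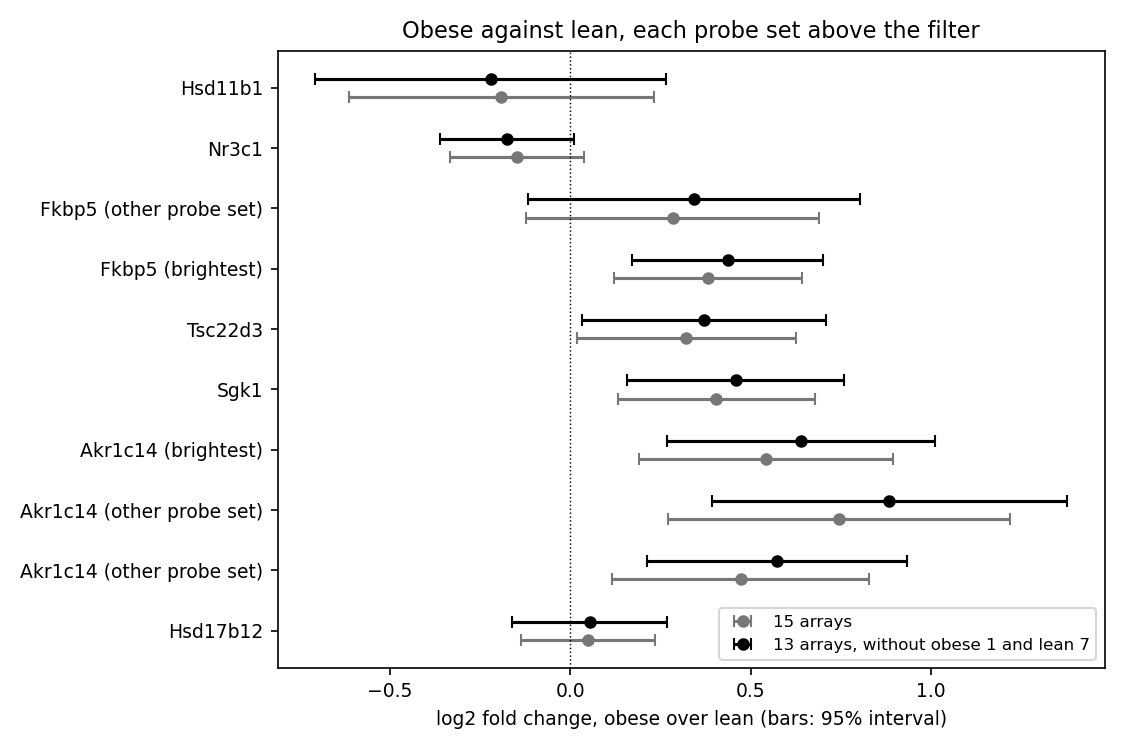
Log2 fold change of obese over lean rats for each of the 10 probe sets above the filter (x axis), with its 95% interval, from limma with 15 arrays (grey) and with 13 arrays (black). The intervals of Akr1c14, Sgk1, Tsc22d3 and the brightest Fkbp5 probe set lie above 0 before adjustment over all probe sets, and those of Hsd11b1, Nr3c1 and Hsd17b12 span 0.

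Akr1c14 (Entrez gene 191574), the rat hydroxysteroid dehydrogenase that reduces dihydrotestosterone and other steroids with a keto group, had the largest log2 fold change of the members. Its brightest probe set ran from 2381 through 2722 to 3342 in the 6 obese rats and from 1128.5 through 1969 to 2326 in the 7 lean rats. The groups did not overlap with 13 arrays, a pattern that, with obese rats higher, 0.918% of the 18625 probe sets showed. The 6 obese rats averaged 2828 ± 417, and the 7 lean rats 1833 ± 502 (SD). The log2 fold change was 0.64 ± 0.17 (SE; limma adjusted p = 0.0899), with a 95% interval from 0.27 to 1.01, and the adjusted p ran from 0.0481 to 0.341 over the alternatives. With 15 arrays it was 0.54 ± 0.17 (SE; limma adjusted p = 0.156), and obese rat 1 lay inside the lean range.

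The other Akr1c14 probe sets had log2 fold changes of 0.88 ± 0.23 and 0.57 ± 0.17 with 13 arrays (SE; limma adjusted p = 0.0782 and 0.106), and in both the groups overlapped. Across the 13 rats the 3 probe sets correlated with each other at r from 0.54 to 0.81, values that share the arrays. With the mean over the 3 in place of the brightest, the log2 fold change was 0.70 and the limma adjusted p 0.0481. Rats have several Akr1c genes with closely related sequences, so a probe set may also detect a related transcript; cross-detection was not tested. Among its relatives above the filter, Akr1c3 had -0.07 ± 0.14 and Akr1c19 -0.24 ± 0.16 with 13 arrays (SE; limma adjusted p = 0.837 and 0.451), both named after their values were seen.

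Hsd17b12 (Entrez gene 84013), a reductase of fatty acid elongation that can also reduce estrone, overlapped widely between the groups. Its signal ran from 15247 through 16068 to 18415 in the 6 obese rats and from 13015 through 15729 to 18280.0 in the 7 lean rats. Its log2 fold change was 0.05 ± 0.10 (SE; limma adjusted p = 0.817), with a 95% interval from -0.16 to 0.27, and quantile normalization gave -0.04.

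Esr1 (Entrez gene 24890), the estrogen receptor alpha, was read by a probe set below the filter. Its signal was lowest at 70.4, median 86.6 and highest at 366.8 in the 6 obese rats, and 65.9, 113.6 and 673.7 in the 7 lean rats. The median obese rat sat close to the pseudocount of 79.9 added before taking logs, and the groups overlapped. The difference in log2 means was -0.34 with 13 arrays (exact two-sided permutation p = 0.426) and -0.23 with 15 (exact two-sided permutation p = 0.614). No difference was detected at these signals, and how large a difference could have been detected was not tested.

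The wider list of glucocorticoid receptor targets tended to higher signals in obese rats, and 3 of its genes passed with 13 arrays. Of 37 listed genes 36 had a probe set and 29 lay above the filter. With 13 arrays 21 of the 29 had a positive log2 fold change and the median was 0.26, while 46.7% of all 10514 genes were positive and their median was -0.02. With 15 arrays 22 of 29 were positive with a median of 0.23, against 46.9% and -0.01. The values ran from -0.33 ± 0.19 for Anxa1, an anti-inflammatory protein, to 1.04 ± 0.37 for the clock gene Per1 (SE, 13 arrays; limma adjusted p = 0.366 and 0.161), both named after their values were seen. With the Gapdh ratio as a covariate these were -0.0640 for Anxa1 and 0.33 for Per1. Limma passed 3 of 29 with 13 arrays, all higher in obese rats, against 0.866% of all genes and 0.725% of all probe sets, and 0 of 29 with 15 arrays. With 15 arrays 11 of the 29 were higher at an unadjusted p under 0.05 and none was lower, against 7.75% of all genes higher.

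Pdk4 (Entrez gene 89813), the kinase that shuts down pyruvate dehydrogenase, glutamine synthetase Glul (24957) and the stress-response gene Gadd45a (25112) were the 3 that passed. Pdk4 averaged 3051 ± 753 over the 6 obese rats and 1463 ± 345 over the 7 lean rats (SD), and its groups did not overlap. Its log2 fold change was 1.03 ± 0.18 (SE; limma adjusted p = 0.0203). The other Pdk4 probe set, dimmer, had 0.17 ± 0.15 (SE; limma adjusted p = 0.578), and the mean over both gave 0.60 with an adjusted p of 0.0606. Glul averaged 23339 ± 4301 over the 6 obese rats and 14502 ± 2128 over the 7 lean rats (SD), and rose by 0.67 ± 0.13 on the log2 scale (SE; limma adjusted p = 0.0305), with its 2 other probe sets at 0.55 and 0.41. Gadd45a rose by 0.56 ± 0.12 (SE; limma adjusted p = 0.0425), with no overlap between the groups. With 13 arrays 1.15% of all genes had groups that did not overlap with obese rats higher. With 15 arrays the groups of both Pdk4 and Gadd45a overlapped. The metallothionein Mt2A, which binds zinc and copper, had 0.84 ± 0.19 (SE; limma adjusted p = 0.0545).

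Pdk4 passed each time 1 more rat was left out. The count over the list was 1 without obese rat 6, 7 or 8 or without lean rat 2, 3, 4, 5 or 6, and 4 without obese rat 3 or without lean rat 1. With 15 arrays it was 0, as for all 18625 probe sets, and without obese rat 1 alone it was 3. How many of all probe sets passed with a rat left out was not counted, so these counts have no background beside them. With the Gapdh ratio as a covariate and 13 arrays none of the 29 passed, where 14 of all 18625 probe sets did. The log2 fold changes were then 1.13 for Pdk4, 0.48 for Glul and 0.40 for Gadd45a.

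**Figure D3:**
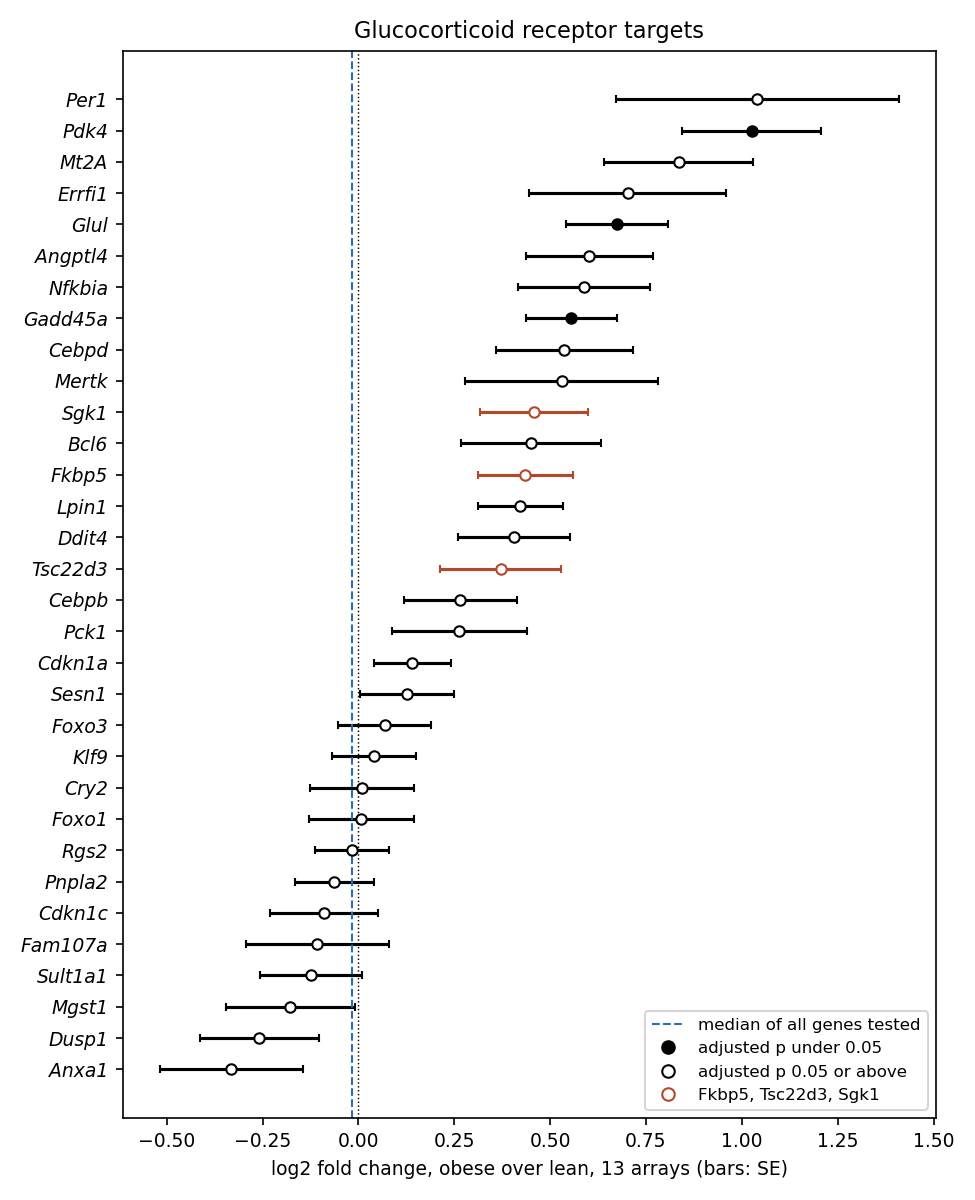
Log2 fold change of obese over lean rats with 13 arrays (x axis, bars are SE) for the 29 listed receptor targets above the filter and, in red, for Fkbp5, Tsc22d3 and Sgk1. Filled points passed at an adjusted p of 0.05 (Pdk4, Glul and Gadd45a), and the dashed line is the median of all genes, -0.02.

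The sequences just before the starts of these genes are shown because the receptor acts by binding DNA. They come from RefSeq on the build GRCr8 and hold 250 bases before and 50 after a gene's start. Of the 9 member genes, 8 had such a window, and Hsd11b1 had none. The full glucocorticoid response element, the receptor's palindrome, occurred in 0 of the 13 windows of the members and in 0.0149% of all 33469 windows. The core ACANNNTGT, which reads the same on both strands, was chosen after the data were seen. It occurred for 1 of 8 member genes (12.5%), in 1 of the 3 windows of Tsc22d3, against 7.31% of all genes. These shares rest on unlike numbers of windows, 13 for the 8 member genes and 33469 for all 27457 genes. Of all windows, 6.86% held the core. Either arm of the full element, AGAACA or TGTTCT, occurred for 0 of 8 member genes and 3 of 26 receptor targets (11.5%), against 21.6% of all genes. Among the receptor targets the core occurred for Glul and Fam107a, 2 of 26 with a window (7.69%). The windows below are those of Fkbp5, which lacks the core, and of Tsc22d3 and Glul, which hold it, written 5′ to 3′ on the gene's strand with the core in capitals.
Fkbp5, chr20:6543506-6543805, minus strand: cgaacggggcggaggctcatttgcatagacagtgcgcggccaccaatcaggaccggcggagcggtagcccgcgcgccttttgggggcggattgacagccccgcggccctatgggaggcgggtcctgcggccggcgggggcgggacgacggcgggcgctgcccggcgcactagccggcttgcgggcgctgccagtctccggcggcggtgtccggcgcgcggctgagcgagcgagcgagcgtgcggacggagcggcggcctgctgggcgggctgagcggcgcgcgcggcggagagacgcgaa
Tsc22d3, chrX:109065381-109065680, minus strand: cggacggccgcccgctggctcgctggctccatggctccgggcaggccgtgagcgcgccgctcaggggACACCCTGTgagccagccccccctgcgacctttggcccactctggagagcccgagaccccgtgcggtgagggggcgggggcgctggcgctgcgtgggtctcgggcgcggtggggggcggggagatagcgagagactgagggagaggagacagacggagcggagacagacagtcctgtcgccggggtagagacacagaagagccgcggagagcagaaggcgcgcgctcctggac
Glul, chr13:68519250-68519549, plus strand: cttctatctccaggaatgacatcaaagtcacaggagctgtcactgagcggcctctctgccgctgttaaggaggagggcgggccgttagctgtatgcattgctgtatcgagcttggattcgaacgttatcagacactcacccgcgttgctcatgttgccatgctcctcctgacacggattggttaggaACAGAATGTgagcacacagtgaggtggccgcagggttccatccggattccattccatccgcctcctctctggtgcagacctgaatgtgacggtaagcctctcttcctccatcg
The core starts 183 bases before this start of Tsc22d3, 1 of 3 starts listed for the gene, and 63 bases before this start of Glul, 1 of 2. A match of letters is a description and shows no binding.

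Chaperones and cofactors of the receptor did not pass in either comparison. Of 22 listed genes 18 lay above the filter. With 13 arrays 7 of the 18 were positive with a median of -0.04, against 46.7% and -0.02 over all genes. The 2 smallest p belonged to Bag1, a co-chaperone, at 0.22 ± 0.11, and to Hsp90ab1, the chaperone that holds the receptor ready, at 0.24 ± 0.13 (SE; limma adjusted p = 0.326 and 0.348). The coactivators Crebbp and Ep300 had -0.15 ± 0.11 and -0.18 ± 0.15 (SE; limma adjusted p = 0.479 and 0.545), and 1 other Crebbp probe set had 0.23. None of the 18 had an unadjusted limma p under 0.05 with 13 or with 15 arrays, against 16.7% and 14.7% of all genes.

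Other steroid receptors and enzymes of steroid metabolism did not pass either. Of 47 listed genes 26 lay above the filter. With 13 arrays 11 of the 26 were positive with a median of -0.10, against 46.7% and -0.02 over all genes. Akr1d1, which reduces the double bond of the steroid ring, had the largest value, -1.19 ± 0.38 (SE; limma adjusted p = 0.125). Its signal ran from 215.9 through 694.5 to 2234 in the 6 obese rats and from 1247 through 1729.8 to 2348 in the 7 lean rats, with obese rat 3 the highest obese rat, and without that rat the log2 fold change was -1.50 with an adjusted p of 0.0371 by limma. Leaving out each of the 13 rats in turn gave -1.50 to -0.91, with adjusted p from 0.0371 to 0.262 by limma, and the Gapdh ratio as a covariate gave -0.81. Star, which brings cholesterol into mitochondria for steroid synthesis, had 0.78 ± 0.27 (SE; limma adjusted p = 0.146). The mineralocorticoid receptor Nr3c2, which also binds glucocorticoids, had -0.32 ± 0.15, and the mitochondrial dehydrogenase Hsd17b10 had 0.37 ± 0.15 (SE; limma adjusted p = 0.298 and 0.216). Hsd17b10 had 0.20 once the Gapdh ratio was a covariate. At an unadjusted p under 0.05 there were 3 of 26 genes (11.5%) with 13 arrays, below the 16.7% of all genes.

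The 3 receptor targets among the members varied together across the pooled rats. All 3 had higher mean signals in obese rats, so the pooled values below include the difference between groups. Over the 15 arrays, 9 pairs were tested: the 3 targets with each other and Hsd11b1 and Nr3c1 with each target. Fkbp5 and Sgk1 correlated at Pearson r = 0.72 (permutation p = 0.0031, adjusted p = 0.0187) and Spearman rho = 0.71 (permutation p = 0.00421, adjusted p = 0.0189). Tsc22d3 and Sgk1 had r = 0.69 (permutation p = 0.00416, adjusted p = 0.0187) and rho = 0.74 (permutation p = 0.00219, adjusted p = 0.0189), and Fkbp5 and Tsc22d3 had r = 0.63 (permutation p = 0.0116, adjusted p = 0.0348) and rho = 0.65 (permutation p = 0.0108, adjusted p = 0.0323). Without the 2 rats farthest from the median of the first gene these r were 0.78, 0.73 and 0.68. The near-identical arrays count as 2 points in these values. The share of all gene pairs with such r was not computed, and the part of RNA quality in these r was not tested.

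Within groups none of the 9 pairs passed, with 13 or with 15 arrays. With the group means removed, r over the 13 rats was 0.44 for Fkbp5 and Sgk1, 0.36 for Fkbp5 and Tsc22d3, 0.50 for Tsc22d3 and Sgk1, and -0.29 for Nr3c1 and Fkbp5. With 13 arrays r was 0.73 for Fkbp5 and Sgk1 (permutation p = 0.00541, adjusted p = 0.0396; rho = 0.64, permutation p = 0.0223, adjusted p = 0.0668), but 0.84 within the 6 obese rats (exact permutation p = 0.0347, adjusted p = 0.283) and -0.40 within the 7 lean rats (exact permutation p = 0.377, adjusted p = 0.612). Fkbp5 and Tsc22d3 had r = 0.61 (permutation p = 0.0246, adjusted p = 0.0555; rho = 0.47, permutation p = 0.11, adjusted p = 0.174), with 0.75 within obese and -0.60 within lean rats (exact permutation p = 0.0944 and 0.153, adjusted p = 0.283 and 0.612). Tsc22d3 and Sgk1 had r = 0.68 (permutation p = 0.0088, adjusted p = 0.0396; rho = 0.77, permutation p = 0.00333, adjusted p = 0.03), with 0.49 within obese and 0.54 within lean rats (exact permutation p = 0.340 and 0.214, adjusted p = 0.729 and 0.612). Without the 2 farthest rats r was 0.45, 0.45 and 0.73 for these 3 pairs over 11 rats, and none of the 9 pairs passed. Nr3c1 ran against Fkbp5 over the 13 rats, at r = -0.65 (permutation p = 0.0148, adjusted p = 0.0444; rho = -0.65, permutation p = 0.0201, adjusted p = 0.0668), with -0.27 within obese and -0.33 within lean rats (exact permutation p = 0.572 and 0.476, adjusted p = 0.736 and 0.612) and -0.39 without the 2 farthest. With all 15 arrays that r was -0.29 (permutation p = 0.293, adjusted p = 0.541). Hsd11b1 had r of 0.04 with Fkbp5, 0.27 with Tsc22d3 and -0.12 with Sgk1 (permutation p = 0.904, 0.378 and 0.694), and the adjusted p of these 3 ran from 0.486 to 0.904.

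**Figure D4:**
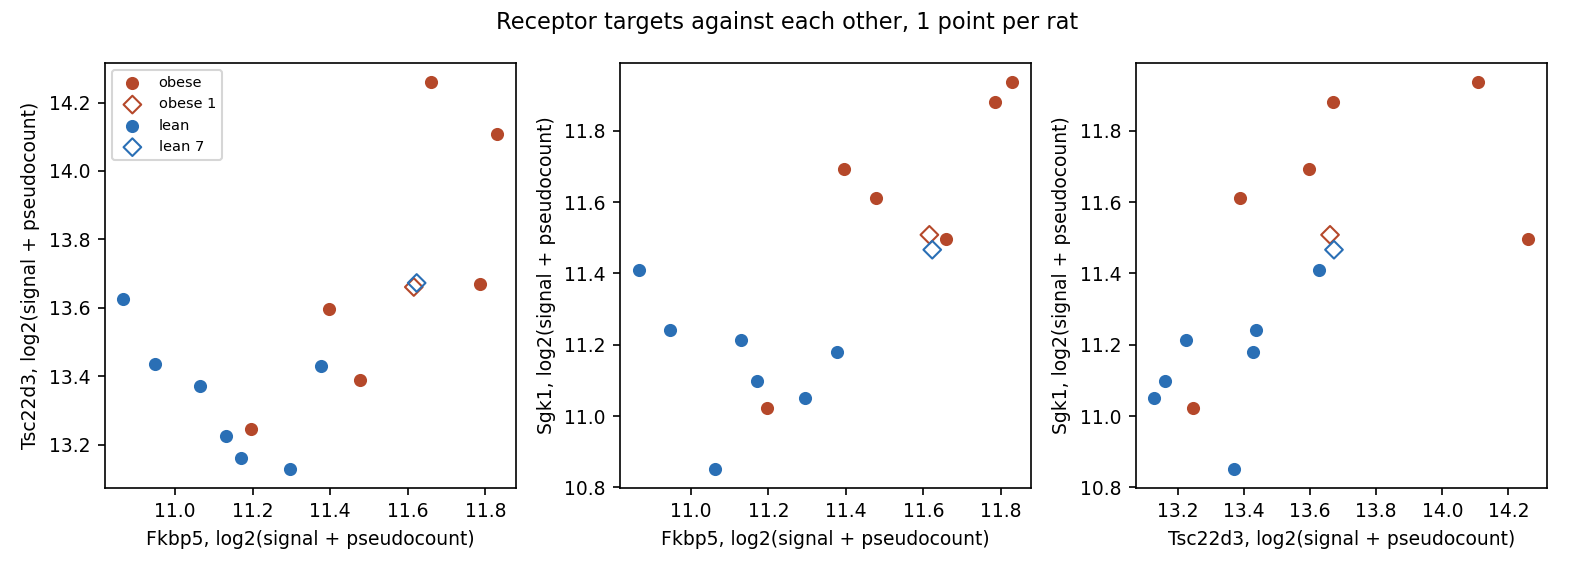
Log2(signal + pseudocount) of Fkbp5, Tsc22d3 and Sgk1 against each other, 1 point per rat, obese in red, lean in blue, and open diamonds for obese rat 1 and lean rat 7. With 13 arrays the pooled r is 0.61, 0.73 and 0.68 from left to right, and within the lean rats it is -0.60, -0.40 and 0.54.

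The genes most like each member were sought among 10513 others by the Pearson r of deviations from the group means over the 13 rats, as a description of values that share arrays. Sgk1 had the closest neighbours, Eef1e1 at r = 0.96, Fam174a at 0.94 and Zswim6 at 0.92. Tsc22d3 was most like Gtf2h5, Wdr45b and Cox5a, at 0.90, 0.89 and 0.89. For Akr1c14 they were Cped1, Psmd14 and Mpp7 at 0.89, 0.87 and 0.85, and for Hsd17b12 Cox6b1, Mnda and Uqcc5 at 0.90, 0.88 and 0.87. Hsd11b1 was followed by Fbxo21, Enpp1 and Sod1 at 0.86, 0.86 and 0.85, Nr3c1 by Atad1, Cdkl2 and Swt1 at 0.86, 0.84 and 0.81, and Fkbp5 by Uba2, Arhgap32 and Pxdc1 at 0.84 each. Among the members, the highest such r was 0.58, between Tsc22d3 and Akr1c14.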

How the data were processed

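Total RNA of epididymal fat was hybridised to 1 array per rat, per the labels, which give 6 micrograms of RNA where the series' design text gives 5. The deposited intensity values are MAS5 signals on a linear scale, per the submitters' processing notes; the version and background settings are not given in the sources used here. The 2% trimmed mean was 1500.3 to 1500.4 on every array, so the deposited intensity values were used as they stand. Signals were taken as log2(signal + 79.9), 79.9 being the 10th percentile of all signals, so fold changes of dim genes are understated. All probe sets above the 40th percentile of mean log2 value were kept, 18625 of them. Obese and lean rats were set against each other by lmFit and eBayes of limma 3.58.1 (R 4.3.3), and p-values were adjusted by Benjamini-Hochberg over all probe sets kept, at a threshold of 0.05. Each gene is represented by its brightest probe set. Gene names came from the platform annotation, with symbols updated by Entrez ID: 20826 probe sets named 1 gene, 436 several and 9780 none. Nothing in the labels gives a batch, and the limma p-values set a group difference against the spread between these rats.

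The members and lists were chosen with earlier results of these data known. Named genes were the members, every gene of a wider list that passed in either comparison and the 4 with the smallest p with 13 arrays, and the 3 genes most like each member. Correlations used 100000 resamples with 10 or more rats and all permutations with fewer. The alternatives were pseudocounts of 1 and 291.2, no filter and the 60th percentile, array weights, quantile normalization, median centring, a block for the rat number, trend with robust, the Gapdh ratio, the mean over probe sets and each rat left out. The fit was also run on simulated data with known changes and noise drawn independently for each probe set. Those data held no differences in RNA quality and no near-identical arrays, so that run does not bear on either. Plots used matplotlib 3.10.9 and Python 3.11.15.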

Additional observations from a re-analysis of the deposited data

Results flagged for a closer look

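Of 32 groups tested for a rat far from the others, over the 8 genes, both diets and both sets of arrays, 1 passed Dixon's 95% critical value, which chance passes in about 1 of 20 groups. Esr1 in obese rat 5 had a log2 value of 8.80 among the 6 obese rats, against 7.53 for the next highest, a gap of 0.809 of the group's range where the critical value is 0.625. Its signal was 366.8, and the probe set lies below the filter on low signals.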

How the results depend on the processing

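With 15 arrays the count of members past the threshold stayed at 0 under every alternative run. With 13 arrays it was 1 with the filter at the 60th percentile (Akr1c14), 1 with array weights (Sgk1) and 1 with the mean over probe sets (Akr1c14), and 0 to 2 when 1 more rat was left out. The count of receptor targets with 13 arrays was 0 with no filter, 0 with the replicate block, 0 with the Gapdh ratio, 1 with quantile normalization, 5 with the filter at the 60th percentile, 5 with trend and robust and 6 with median centring, and 1 to 4 when 1 more rat was left out. With 15 arrays that count was 0 to 3 when 1 rat was left out. For the fits with a rat left out, passing probe sets were not counted over the whole array. Over all 18625 probe sets with 13 arrays, 189 passed in the main fit, 3 with the replicate block and 14 with the Gapdh ratio. Quantile normalization passed 124, array weights 261, trend and robust 309 and median centring 389. With no filter 46 of 31042 passed, and with the filter at the 60th percentile 334 of 12417. The cause of the changing counts was not tested. The deviations of rats of the same number correlated at r from -0.11 to 0.24 over the 7 shared numbers, and rats of unlike number were not compared. Whether a number marks a shared batch or pairing was not tested. Under the replicate block Pdk4 had 1.16 with 13 arrays (limma adjusted p = 0.137). Hsd17b12 turned to -0.0310 with 15 and -0.0393 with 13 arrays under quantile normalization and to -0.0245 under the replicate block with 13, and Crebbp to 0.0054 with the mean over probe sets and 15 arrays. Among the other members, the other named genes of the wider lists, Per1, Anxa1 and H6pd, none changed sign. The genes most like each member, Akr1c3 and Akr1c19 were not followed through the alternatives. Of the relations, 0 of 9 passed within obese rats and 0 within lean rats in both sets, and 0 without the 2 farthest rats with 13 arrays. With quantile normalization 2 of 9 passed in each set. The permutation adjusted p was then 0.0573 for Fkbp5 and Tsc22d3 with 15 arrays, and 0.0539 for Tsc22d3 and Sgk1 with 13. Nr3c1 and Fkbp5 had r = -0.80 under it with 13 arrays (permutation adjusted p = 0.00999). With 15 arrays Hsd11b1 and Sgk1 turned to 0.10 within obese rats, 0.0154 within lean rats and 0.0218 without the 2 farthest, and within lean rats Nr3c1 turned to 0.17 with Fkbp5, 0.56 with Tsc22d3 and 0.79 with Sgk1. With 13 arrays Hsd11b1 and Sgk1 turned to 0.12 within obese and 0.0372 within lean rats, Hsd11b1 and Fkbp5 to -0.11 without the 2 farthest, and within lean rats Fkbp5 turned to -0.60 with Tsc22d3 and -0.40 with Sgk1, and Nr3c1 to 0.37 with Tsc22d3 and 0.71 with Sgk1. Low signals limit Esr1 and the second Nr3c1 probe set, for which the filter, the block, weights, trend and the Gapdh ratio were not run.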
